A study of Gallus gallus with 2 samples.

Results

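Long non-coding RNAs (lncRNAs) are transcripts that are not translated into protein, and many of them lie close to or across other transcripts. Where 2 annotated intervals share bases, they may be variants of a shared transcript, transcripts of opposite strands, an inner transcript within an intron of an outer one, or pieces of a transcript that was assembled more than once. Where shared bases lie in both transcripts and on the same strand, a read of them fits both entries. The value given to each entry then depends on how such reads were counted. The overlapping entries were the listed lncRNA intervals of chicken breast muscle that share at least 1 base with another listed interval of the same chromosome or scaffold. By this rule, which uses positions only, 3082 of 21993 listed intervals (14.0%) were members, and 18911 overlapped no other.

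Breast muscle came from hens of 7 weeks of age of 2 chicken strains, White Recessive Rock (WRR), which grows fast per the labels, and the Chinese native Xing Hua (XH), which grows slowly. Birds of average weight were chosen, 625.3 ± 12.0 g in WRR and 328.5 ± 10.6 g in XH (the kind of error is not named), and both strains shared housing space and feed but not cages. RNA of 4 hens per strain was pooled, depleted of ribosomal RNA and made into 1 strand-marked library per strain. There was no replicate, so the spread between birds is unknown and no p-value is given. Intervals of ratios cover counting error in these 2 libraries only. Those of medians and shares reflect the spread over listed transcripts or pairs, taken as if independent.

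Of the library totals in the file headers, 1846031 reads in WRR (19.5%) and 1883727 in XH (24.4%) fell on listed transcripts. Members held 118492 of these in WRR (6.42%) and 150000 in XH (7.96%). The table gives reads, RPKM (reads divided by transcript kilobases and by M reads of the library total) and coverage (percent of the length with reads) for each library. It has no strand, exon positions, gene names or sequence, so neighbouring genes and muscle markers were not analysed here, and transcripts are named by galGal4 position counted from 1. In whole muscle, fewer cells of a type and less RNA per cell cannot be told apart.

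The 3082 members formed 1916 overlapping pairs, and 2668 of them had only 1 partner. Joined through shared bases, they made 1275 chains, of which 1029 had 2 members and 11 had 10 or more, with 38 in the longest. An overlap was 547.5 bases long in the median (quartiles 278.75 and 938.5), from 1 to 395954 bases. Only 243 pairs shared under 100 bases. Intervals no longer than their transcript are called contiguous here, and longer ones, which must span introns or other gaps, are called gapped. For 20 contiguous entries the listed transcript was longer than the interval. Most pairs, 1189 of 1916, joined contiguous partners, so that the shared bases belonged to both transcripts, except where such an entry took part. Their overlap had a median of 445 bases, or 64.7% of the shorter and 33.8% of the longer interval.

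The shape of an overlap went with its kind. Among contiguous partners 1167 pairs were staggered, each interval reaching beyond the other, and 22 were nested. No contiguous pair had identical ends. Nesting occurred mainly as a contiguous transcript inside a gapped interval, with 506 pairs, and the table does not say whether the inner transcript lay in a gap or across an exon of the outer. Gapped partners made 56 nested and 62 staggered pairs with each other, 87 pairs were staggered with 1 gapped partner, 7 had a gapped transcript within a contiguous one, and 9 had identical ends.

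Members were spread unevenly over the genome. On chromosome 18, 57 of 225 listed intervals were members (25.3%), and chromosomes 15, 28, 19 and 13 followed with 24.8%, 24.7%, 24.6% and 24.1%. The 47 intervals on linkage groups held no member. The lowest shares on chromosomes were 5.74% on chromosome 9, 6.60% on Z and 7.14% on chromosome 7. Z had the fewest listed intervals per Mb among the chromosomes, 10.3. Density alone did not order the rest, since chromosomes 18 and 9 had 19.7 and 22.3 per Mb. Chromosome 1 gave the most members, 597 of 3883. Of the 80 intervals placed on W, the chromosome that hens carry and cocks lack, 15 were members.

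Members were listed at lower levels than other lncRNAs in both libraries. The median level of members was 1.33 RPKM in WRR (quartiles 0.429 and 3.02) and 2.33 RPKM in XH (0.774 and 4.79). Intervals that overlapped no other had medians of 2.84 RPKM in WRR (1.40 and 5.54) and 4.81 RPKM in XH (3.14 and 9.16). A mean of at least 10 RPKM was reached by 199 members (6.46%) and by 3259 of the others (17.2%). Members were not shorter, with a median length of 975.5 bases against 825. Their coverage was lower, with medians of 49.3% in WRR and 55.1% in XH, against 82.7% and 91.0% for the others.

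Levels differed between kinds of members, and contiguous transcripts placed inside gapped intervals were not low. The 404 contiguous transcripts lying wholly within gapped intervals and overlapping no contiguous one had medians of 3.18 RPKM in WRR against 6.38 RPKM in XH, with coverage of 84.4% and 93.0%. All 4 medians were above those of intervals that overlapped none. The 2137 contiguous transcripts with contiguous partners only had 0.993 RPKM in WRR against 1.81 RPKM in XH, with coverage of 40.2% and 47.5%. Gapped members differed likewise. The 659 gapped transcripts that overlapped none had 6.24 RPKM in WRR against 5.76 RPKM in XH. The 114 gapped members whose partners were contiguous and all lay inside them had 2.92 and 4.35 RPKM, the 80 with a contiguous partner crossing their end had 1.83 and 2.34 RPKM, and the 211 with a gapped partner had 1.90 and 1.92 RPKM.

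Within the 2137 contiguous members with contiguous partners, the level followed the share of the transcript outside every overlap, called private bases here. In all, 45.4% of the bases of these transcripts were shared. Where private bases made up under 10% of the length (422 transcripts, 28.5 private bases in the median), the median levels were 0.226 RPKM in WRR against 0.306 RPKM in XH. They were 0.430 and 0.710 RPKM at 10 to 25% (298 transcripts), and 0.763 and 1.37 RPKM at 25 to 50% (389). Levels went on upward with the private share. They reached 1.48 and 2.51 RPKM at 50 to 75% (378 transcripts), 2.12 and 3.67 RPKM at 75 to 90% (272), and 2.75 and 4.11 RPKM at 90% or more (378). On the log2 scale the median of the mean level was -3.49 in the lowest class relative to the highest. Both libraries alone gave the same order, with -3.61 in WRR and -3.75 in XH.

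Divided by private bases in place of the listed length and taken over all series of serial numbers, the levels no longer rose steadily with the private share. In transcripts with at least 100 private bases, the reads per kilobase of private length per M reads had medians of 2.38 in WRR and 3.85 in XH at 10 to 25% (199 transcripts), 2.13 and 3.601 at 25 to 50%, 2.44 and 4.18 at 50 to 75%, 2.63 and 4.24 at 75 to 90%, and 2.91 and 4.36 at 90% or more. Below 10% the 37 transcripts with enough private bases had 2.84 and 4.80. The deposited medians of intervals that overlapped none were 2.84 and 4.81 RPKM. Within the series described below the values did move with the private share. In series C the XH medians went down from 11.4 below 10% (20 transcripts) through 6.36, 4.94, 4.70 and 4.42 to 3.92 at 90% or more, while the WRR medians lay between 1.09 and 1.95. In series B the WRR median was 7.84 below 10% (17 transcripts) and 3.32 at 90% or more, and the XH medians were 0.767 and 2.49. The division was added after the data had been seen, and a read that crosses the edge of an overlap raises such a value most where few bases are private.

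**Figure D1:**
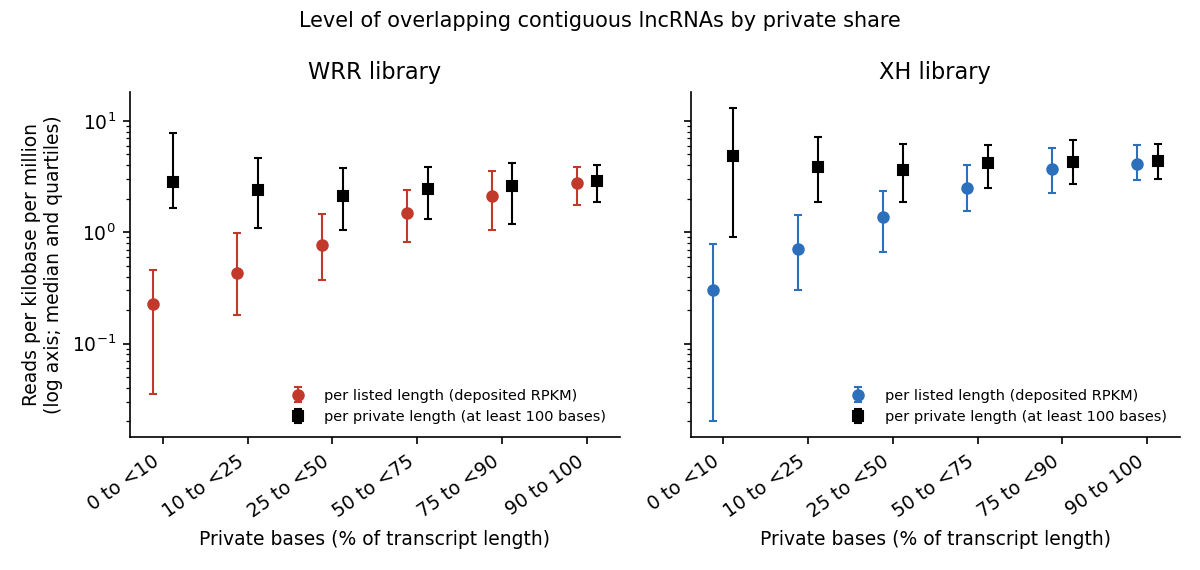
Median level (points) with quartiles (bars) of contiguous members with contiguous partners, on a log axis, by private share of the transcript, in WRR (left) and XH (right). Circles are deposited RPKM, which runs from 0.226 to 2.75 in WRR, and squares are reads per kilobase of private length, between 2.13 and 2.91 in WRR. The lower quartile of RPKM in XH below 10% was 0 and is drawn at 0.02.

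Coverage followed the private share as well. The median coverage in WRR was 14.6% below 10% private bases, 34.9% at 25 to 50%, 54.7% at 50 to 75% and 79.8% at 90% or more. The values in XH were 15.5%, 40.1%, 60.0% and 84.8% for the same classes. Across these 2137 transcripts, which share libraries and in pairs share bases, Spearman's rho between private share and coverage was 0.68 in WRR and 0.73 in XH. A transcript listed with 1 read had 90 bases covered in all 284 such cases in WRR and all 148 in XH, so 1 read was taken as 90 bases. Covered bases did not exceed private bases in 1181 transcripts in WRR (55.3%) and 1103 in XH (51.6%). Allowing 1 read length at each edge of an overlap, this held for 1597 (74.7%) and 1530 (71.6%). In the other 540 and 607 transcripts reads were listed further inside shared bases. These shares are partly fixed in advance, since a transcript with a dash has no covered bases. One that is nearly all private can hardly exceed its private bases. Below 10% private bases, covered bases exceeded private bases, with no read length allowed, in 316 of 422 transcripts in WRR and 293 in XH. Dashes stood at 105 and 124 transcripts of this class. The header calls the reads uniquely mapped, and how reads in bases shared by listed transcripts were treated is not stated by the sources used here. Its part in the low levels was not tested.

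**Figure D2:**
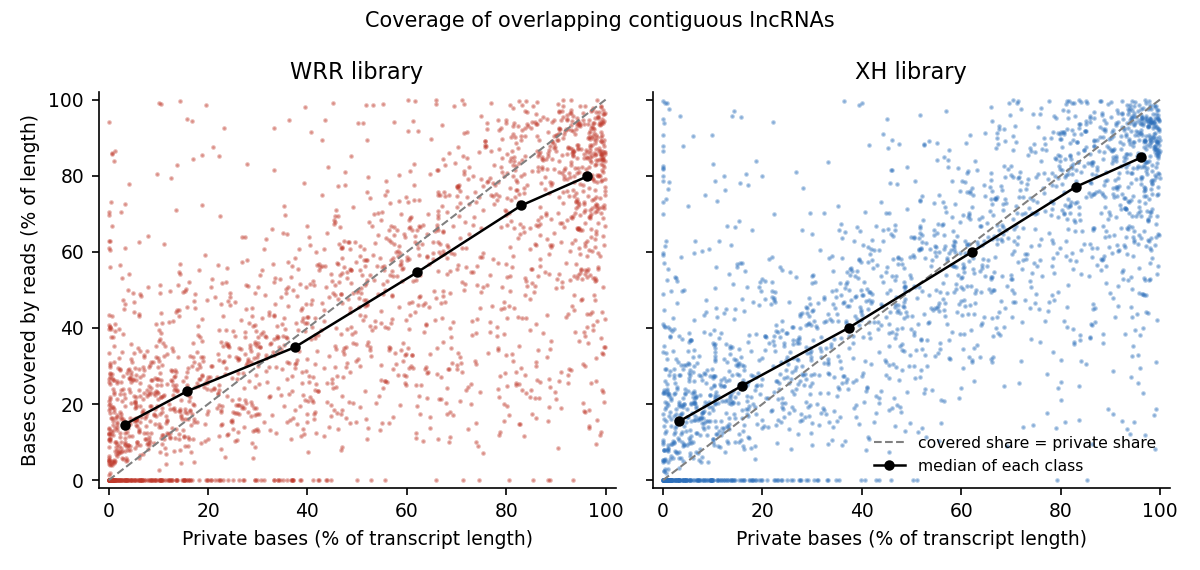
Coverage (percent of the length with reads) against private share for 2137 contiguous members with contiguous partners, in WRR (left) and XH (right). Small points are transcripts, black points the medians of the 6 classes of private share, and the dashed line marks equal shares. The medians run from 14.6% to 79.8% in WRR and from 15.5% to 84.8% in XH, above the dashed line where few bases are private and below it where nearly all are.

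A dash in place of a library's values, read as 0 reads, was far more frequent among members. Members had 225 of all 544 dashes in WRR (41.4%) and 228 of all 296 in XH (77.0%), although they made up 14.0% of the intervals. A dash in either library stood at 453 members (14.7%, exact 95% interval 13.5 to 16.0%) and at 387 of the other 18911 intervals (2.05%). Among contiguous members with contiguous partners, 54.3% of those with under 10% private bases had a dash, 29.5% at 10 to 25%, 12.9% at 25 to 50%, and 0.265% at 90% or more. Inside gapped intervals the share was 3.47%. The reads opposite these dashes were few, with a median of 4 reads in XH and 3 reads in WRR. The side of a dash went with the series of serial numbers described below. Series C held 185 of the 225 member dashes in WRR, and series B held 187 of the 228 in XH. Over all listed intervals these series held 504 of 544 and 254 of 296.

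Some dashes stood opposite many reads. A 986-base transcript at chromosome 2, 129049798 to 129050783, was listed with 107 reads (14.1 RPKM) in XH, covering 47.6% of it, and with a dash in WRR. With 3 reads put in place of the dash, it was 43.7-fold higher in XH. Values of this kind leave out the counting error of the other library and are not lower limits. Its partner, 1489 bases at 129049092 to 129050580, had 26 reads in WRR and 216 in XH, so both were higher in XH. On chromosome 1, a 531-base transcript at 55423421 to 55423951 was listed with 40 reads (9.76 RPKM) in XH, covering 99.8% of it, and with a dash in WRR. It was 16.3-fold higher in XH with 3 reads in place of the dash. It lies inside a gapped interval that is listed 2 times, and the longer entry had near even reads, 21 in WRR and 24 in XH. In the other direction, the 490-base transcript at chromosome 3, 85960518 to 85961007, was listed with 44 reads (9.51 RPKM) in WRR, covering 99.2% of it. XH has a dash there, and with 3 reads in its place the level was 12.0-fold higher in WRR. The gapped interval around it, 1276 bases long, had 52 reads in WRR and 3 in XH. The remaining members chosen by the same rule were treated alike, with 3 reads in place of the dash. A transcript on an unplaced scaffold was then 33.9-fold higher in XH. Transcripts on chromosomes 5 and 27 reached 8.44-fold and 5.72-fold in favour of WRR.

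The direction between strains was measured as log2((WRR + 0.1) / (XH + 0.1)) of the RPKM, positive where WRR was higher, among transcripts whose higher library reached 0.5 RPKM. This filter kept 2744 of the 3082 members. Of these, 394 (14.4%) were 2-fold or more in favour of WRR and 1205 (43.9%) in favour of XH. Over all listed transcripts past the filter the shares were 9.45% and 46.9%, so members differed little from the background in XH and had more in WRR. The median log2 ratio of members was -0.79 (95% interval -0.85 to -0.71), against -0.93 (-0.95 to -0.91) for intervals that overlapped none. The median of all transcripts, -0.92, depends on the scaling of the libraries. With that median taken out, 769 members (28.0%) were 2-fold or more in favour of WRR and 623 (22.7%) in favour of XH, against 22.3% and 20.3% of all transcripts, and the median of members was 0.13. With at least 20 reads for each transcript in place of the RPKM filter, 180 of 1995 members (9.02%) reached 2-fold in favour of WRR and 848 (42.5%) in favour of XH. Over all transcripts of that depth the shares were 8.29% and 45.5%, so the excess in WRR was mostly gone.

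Partners differed from each other more than neighbouring transcripts did. Both partners passed the filter in 1578 of the 1916 pairs. In 814 of these (51.6%) the log2 ratios had the same sign, and in 764 they were opposite. The comparison was with 7792 pairs of consecutive listed intervals, past the filter, that shared no base and lay at most 1000 bases apart, of which 80.1% had the same sign. Both partners were at least 2-fold higher in WRR in 17 overlapping pairs (1.08%, neighbours 1.87%). Both were at least 2-fold higher in XH in 214 pairs (13.6%, neighbours 30.4%). They were at least 2-fold apart from even in opposite directions in 246 pairs (15.6%, neighbours 2.19%). The median difference between the partners' log2 ratios was 1.62 (95% interval 1.53 to 1.73), against 0.75 (0.73 to 0.77) between neighbours. Signs, unlike these differences, depend on the scaling of the libraries. With the median of all transcripts taken out, 695 of the 1578 pairs (44.0%) had the same sign. The shares were 43.1% with TMM and 44.2% with size factors, and those of neighbours are not given on these scales. The 2 sets also differed in their mix of the series of serial numbers described below. Pairs of series B with series C were 876 of the 1578 overlapping pairs but 977 of the 7792 neighbour pairs. Without them, 72.1% of overlapping pairs and 84.6% of neighbours had the same sign. Then 1.57% and 0.748% were 2-fold in opposite directions, and the median differences were 0.95 (0.86 to 1.05) and 0.66 (0.64 to 0.68). Pairs that share a partner are not independent of each other.

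Pairs with at least 20 reads in each partner were also taken separately. In these 973 pairs, 595 (61.2%) had the same sign and 63 (6.47%) were 2-fold in opposite directions. In 7058 neighbour pairs of that depth the shares were 80.8% and 1.54%. The exact interval of the ratio of the 2 partners' ratios, which assumes that they share no reads, excluded 1 in 824 of the 1578 pairs (52.2%) and in 29.8% of neighbour pairs. At the higher depth it excluded 1 in 518 of 973 pairs (53.2%) and in 29.6% of neighbours. The gap to neighbours was thus smaller in sign and about the same by this interval. Without pairs of series B with C, the same sign at this depth was found in 72.5% of 567 pairs and 84.5% of neighbours.

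The serial numbers of the partners went with their direction. Serial numbers up to 3658 (series A) run in no order of chromosomes, those from 3659 to 11941 (series B) run through the chromosomes in order, and those from 11942 on (series C) run through them again. The sources used here do not say how the series arose. Of the 1189 contiguous pairs, 860 joined a series B with a series C transcript, while only 4 joined B with B and 26 joined C with C. Of 618 such contiguous pairs of B with C past the filter, the B partner had the higher log2 ratio in 592 (95.8%). The B partner was higher in WRR and the C partner higher in XH in 419, and the reverse held in 3. In 180 both were higher in XH and in 16 both were higher in WRR. All 196 pairs that were 2-fold in opposite directions had the B partner higher in WRR. Over all listed transcripts past the filter, 23.6% of series B and 0.764% of series C were 2-fold or more in favour of WRR. In favour of XH the shares were 15.9% and 76.1%, so the reverse could hardly occur in either kind of pair. The median log2 ratio was 0.75 (0.63 to 0.85) for B partners and -1.78 (-1.86 to -1.67) for C partners, while their median mean levels were close, 1.43 and 1.55 RPKM. With at least 20 reads in each partner, 238 contiguous pairs of B with C remained. Of these, 45 (18.9%) were 2-fold in opposite directions, against 31.7% past the filter alone. The median absolute difference of log2 ratios was 2.05 (1.89 to 2.23), against 2.66 (2.42 to 2.80).

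**Figure D3:**
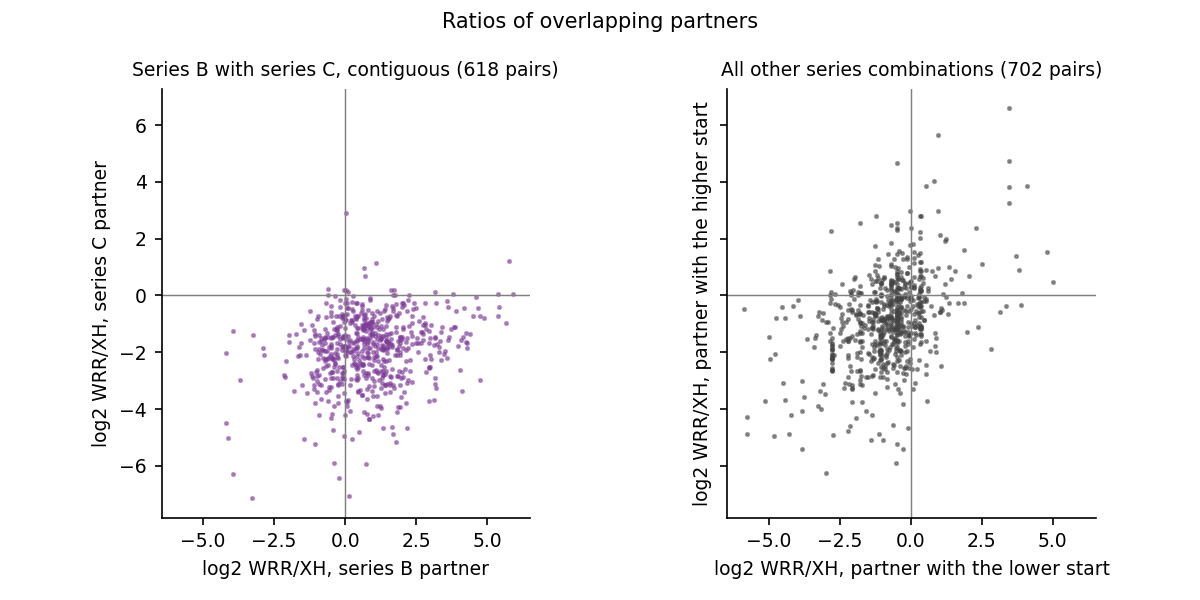
Log2 ratio of WRR over XH of both partners of each overlapping pair past the filter. On the left are 618 contiguous pairs of a series B (horizontal axis) and a series C transcript (vertical axis), of which 419 have a positive B and a negative C value. On the right are 702 pairs of all other series combinations, ordered by start, of which 506 have the same sign.

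Series alone also separated transcripts that did not overlap, but less. In 940 contiguous neighbour pairs of B with C, the B transcript was higher in 93.5%, with medians of 0.094 (0.0014 to 0.17) for B and -1.63 (-1.71 to -1.56) for C. The difference of B minus C was 2.64 (2.41 to 2.79) in the median of overlapping pairs and 1.79 (1.70 to 1.90) in neighbours. Past the filter, much of the added difference lay in series B. For its 973 members past the filter, of 1168, the median log2 ratio was 0.66 (0.56 to 0.74). It was -0.016 (-0.055 to 0.013) for the 6535 series B intervals, of 6549, that overlapped none. The filter uses the higher library and dropped a larger share of members, and no value at matched depth is given for this comparison. In series C the medians were -1.74 (-1.83 to -1.67) for members and -1.62 (-1.65 to -1.60) for the others, and in series A -0.55 (-0.61 to -0.46) and -0.56 (-0.59 to -0.53). With the median of all transcripts as reference all series B medians given here are positive and those of C negative.

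In series B the ratio went with the private share. Over all series B contiguous members with contiguous partners, without a filter on level, the median log2 ratio was 1.01 (0.67 to 1.29) below 10% private bases, 1.24 (0.81 to 1.51) at 10 to 25%, 0.95 at 25 to 50%, 0.42 at 50 to 75%, 0.28 at 75 to 90% and 0.33 (0.092 to 0.69) at 90% or more. In series C the medians were -1.52 (-1.84 to -1.25) below 10%, -1.99 at 10 to 25%, -1.85 at 25 to 50% and -1.75 (-1.99 to -1.56) at 90% or more. With at least 20 reads per transcript the order in series B was not kept, with medians of -0.60 below 10% (19 transcripts), 0.28 at 10 to 25% (29), 0.42 at 25 to 50% (72) and 0.25 at 90% or more (83). The higher ratio of series B at low private shares was thus not seen in transcripts of that depth.

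The share of pairs in the same direction differed between combinations of series. Pairs of A with A had the same sign in 80.5% of 87 overlapping pairs and in 80.5% of neighbours. The shares were 92.6% of 81 pairs of C with C (neighbours 95.8%), 62.8% of 78 pairs of B with B (76.5%), 75.1% of 309 pairs of A with C (87.9%) and 54.4% of 147 pairs of A with B (63.9%). Pairs of B with C had the lowest share, 35.2% of 876 (49.2%). Of these pairs 26.8% were 2-fold in opposite directions (12.3%). With at least 20 reads in each partner, pairs of B with C had the same sign in 45.3% of 406 (51.6%). The opposite share was then 14.3% (9.49%). In every combination except A with A the overlapping share was below that of neighbours. These shares do not measure how closely the ratios of partners varied together. Spearman's rho was 0.67 in overlapping pairs of A with A (neighbours 0.51), 0.48 in C with C (0.29) and 0.58 in B with B (0.63). Between the B and C ratios of contiguous pairs it was 0.17 (0.21). Without pairs of B with C, 506 of 702 overlapping pairs (72.1%) had the same sign, against 84.6% of neighbours, and 11 were 2-fold in opposite directions (1.57%, neighbours 0.748%).

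**Figure D4:**
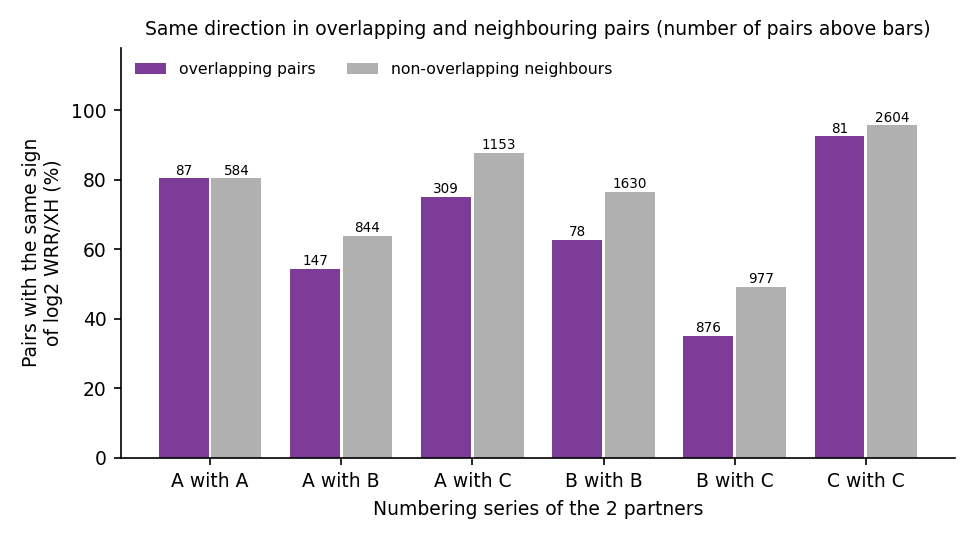
Percent of pairs whose partners have the same sign of log2 WRR over XH, by numbering series of the partners, in overlapping pairs (purple) and in neighbours that share no base within 1000 bases (grey), with the number of pairs above each bar. Overlapping pairs of B with C are lowest at 35.2% and those of C with C highest at 92.6%.

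By shape, staggered contiguous partners differed most. Of 898 such pairs past the filter, 400 (44.5%) had the same sign and 204 (22.7%) were 2-fold in opposite directions, with a median difference of 2.11 (1.95 to 2.23). All 19 nested contiguous pairs past the filter had the same sign, 16 of them with both partners at least 2-fold higher in XH, and their median difference was 0.63 (0.18 to 1.27). A contiguous transcript inside a gapped interval went with it in 299 of 484 pairs (61.8%), and 22 (4.55%) were 2-fold in opposite directions, with a median difference of 1.03 (0.90 to 1.16). Gapped partners nested in each other had the same sign in 30 of 43 pairs (69.8%), and staggered ones in 23 of 50 (46.0%). None of the nested contiguous pairs past the filter joined series B with C, so shape and series were not separate.

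The share with the same sign was lower for longer overlaps up to 75%. For contiguous partners that shared under 25% of the longer interval, 51.4% of 451 pairs had the same sign, and the share was 41.4% of 256 at 25 to 50% and 32.7% of 147 at 50 to 75%. It was 42.1% of 38 at 75 to 90% and 68.0% of 25 at 90% or more, where only 25 of 67 pairs passed the filter. Pairs of B with C made up 235, 206 and 129 of the pairs in the first 3 of these classes, so overlap and series were not separate. Among them alone the share was 32.8%, 32.0% and 27.1%. In the last 2 classes it was 29.0% of 31 and 52.9% of 17. At the edge of the rule, 27 pairs past the filter that shared 1 to 10 bases had the same sign in 70.4%, and 34 neighbour pairs 0 to 10 bases apart in 55.9%.

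The opposite pairs with the largest difference of log2 ratio involved few places. On chromosome 4, the gapped transcript of 907 bases that spans 29787344 to 29823265 was listed with 31 reads (3.62 RPKM) in WRR but 2 reads (0.286 RPKM) in XH, 12.7-fold higher in WRR (exact 95% interval 3.22 to 109). The 769-base transcript inside it, at 29797097 to 29797865, had 2 reads (0.275 RPKM) in WRR but 31 reads (5.23 RPKM) in XH, an XH excess of 19.0-fold (4.83 to 164). The 2 entries thus had mirrored counts in the 2 libraries, and the ratio of their ratios was 240 (25.9 to 2859). The gapped entry belonged to series B and the inner one to series C. On chromosome 27, staggered contiguous partners shared 187 bases. The first, 1261 bases at 3592744 to 3594004, had 3 reads (0.252 RPKM) in WRR but 123 reads (12.6 RPKM) in XH, an XH excess of 50.2-fold (16.8 to 247). The second, 943 bases at 3593818 to 3594760, had 19 reads (2.13 RPKM) in WRR but 4 reads (0.550 RPKM) in XH, 3.88-fold higher in WRR (1.29 to 15.7). Its coverage was 85.6% in WRR and 31.7% in XH, and that of the first 17.3% and 94.5%. Here the first belonged to series C and the second to series B.

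The other 4 of these pairs shared a gapped transcript on Z, 622 bases at 11589497 to 11603568, with 26 reads (4.43 RPKM) in WRR but 1 read (0.208 RPKM) in XH, for a ratio of 21.2 (3.49 to 871). Its 4 partners were all higher in XH. A 389-base transcript inside it, at 11590453 to 11590841, had 7 reads in WRR and 27 in XH, 4.72-fold higher in XH (2.01 to 12.8). A 963-base transcript crossing its lower end, at 11589108 to 11590070, had 10 and 37 reads and was 4.53-fold higher in XH (2.21 to 10.2). The remaining partners were 3.02-fold and 2.99-fold higher in XH. All 4 partners belonged to series C and the gapped transcript to series B. In all of these opposite pairs, on chromosomes 4, 27 and Z, the series B entry was thus the one higher in WRR.

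The 5 pairs most strongly higher in WRR in both partners lay at 2 places. On chromosome 4, staggered gapped transcripts of 1928 bases (29841494 to 29879367) and 709 bases (29862507 to 29887004) had 134 and 45 reads in WRR and 5 and 2 reads in XH. Their ratios were 21.9 (9.15 to 68.5) and 18.4 (4.80 to 156), which did not differ beyond counting error, since the ratio of ratios was 1.19 (0.11 to 7.58). This place lies on the far side of the gapped transcript of the mirrored pair described above. On chromosome 3, the 1276-base gapped transcript at 85945599 to 85982651 had 52 reads (4.32 RPKM) in WRR but 3 reads (0.305 RPKM) in XH, for a ratio of 14.2 (4.59 to 70.9). Of 4 partners named with it, all of series B, the gapped one at 85951852 to 85959255 had 66 reads and 1 read, and contiguous ones had 22 and 1, 44 and 0, and 53 and 4 reads in WRR and XH. All 5 entries were thus high in WRR and nearly without reads in XH.

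The pairs most strongly higher in XH were all on unplaced scaffolds. On 1 scaffold, 3 entries all overlapped each other. They had 104, 4 and 0 reads in WRR against 1780, 161 and 83 reads in XH, and the first was 20.9-fold higher in XH (17.2 to 25.8), the second 49.3-fold (18.9 to 183). The first is listed with a transcript length of 9085 bases but an interval of 3198. The second had 0 private bases and the third 1, and whether reads were listed for more than 1 entry was not tested. On another scaffold, a 217-base transcript nested in a 341-base one had 4 reads in WRR and 64 in XH, and the outer had 21 and 326, giving 19.6-fold (7.29 to 74.1) and 19.0-fold (12.2 to 31.1) higher in XH. The inner entry had 0 private bases, and whether the same reads were listed for both was not tested. A further pair, nested, had 17 and 37 reads in WRR and 240 and 533 in XH, or 17.3-fold and 17.6-fold. Its outer entry is listed with a transcript length of 3937 bases but an interval of 3036.

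The most abundant pairs, ranked by the lower partner, mostly had partners on the same side of even, but the size of the ratio could differ. On chromosome 8, a 1012-base transcript at 11007393 to 11008404 lay inside a 1878-base gapped one at 11004852 to 11008985. The outer had 58.6 RPKM in WRR against 106.8 RPKM in XH, a 1.82-fold excess in XH (1.68 to 1.97), and the inner 63.9 and 145.8 RPKM, 2.28-fold higher in XH (2.06 to 2.52). Both were covered over at least 99.3% of their length in both libraries, and the ratio of their ratios was 1.25 (1.10 to 1.42). This interval, which assumes that they share no reads, excluded 1. The nested gapped pair at chromosome 8, 23380339 to 23385134, was 1.58-fold and 1.49-fold higher in XH. On an unplaced scaffold, nested entries had 366 and 138 reads in WRR and 2627 and 987 in XH, with log2 ratios of -3.11 and -3.11. They are listed with transcript lengths of 7204 and 2786 bases, by which their RPKM divides, but intervals of 1699 and 1738. Partners on chromosome 21, sharing 302 bases from 3683056, had log2 ratios of 0.073 and -0.64, and their ratio of ratios was 1.64 (1.16 to 2.34). With the median of all transcripts as reference the second of these and the chromosome 8 transcripts, except the inner one at 11007393, turn to WRR.

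On chromosome 1 the partners differed. The transcript at 100351010 to 100351354, listed with 381 bases in an interval of 345, was near even, at 25.02 RPKM in WRR against 24.5 in XH. The 298-base transcript at 100351241 to 100351538, which shares 114 bases with it, had 221 and 46.1 RPKM. Although the intervals share 38.3% of the shorter, the ratio of their ratios was 4.69 (3.17 to 6.92). Both were covered over at least 90.6% of their length in each library, and 184 of the 298 bases of the second were private. Reads were therefore listed inside the shared bases for this pair.

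Partners could also stand at very unequal levels. At chromosome 1, 179739076 to 179743185, a gapped transcript of 2892 bases had 24.2 RPKM in WRR against 7.80 RPKM in XH, inside another of 3030 bases with 550 and 186 RPKM, a 23.0-fold difference in mean level. Their ratios were nevertheless alike, 3.10 (2.62 to 3.68) and 2.96 (2.86 to 3.06), and the ratio of ratios was 0.96 (0.80 to 1.13). At chromosome 1, 105221494 to 105230417, a 470-base gapped transcript had 33 and 10 reads in WRR and XH, against 732 and 1110 for the partner at 105226728 to 105230760, which stood 27.7-fold higher in mean RPKM. There the directions were opposite, with ratios of 2.70 (1.30 to 6.13) and 0.54 (0.49 to 0.59). With the median of all transcripts as reference the second, at a log2 ratio of -0.89, is no longer higher in XH. A 253-base transcript inside the gapped interval at chromosome 1, 55421674 to 55447459, was 18.5-fold above it in mean RPKM. At chromosome 20, 11258356 to 11262079, a transcript stood 17.3-fold above the partner with which it shares 72 bases, and both were higher in XH, 1.70-fold (1.57 to 1.84) and 3.06-fold (1.29 to 8.03). With the median of all transcripts as reference the more abundant one, at a log2 ratio of -0.76, turns to WRR.

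The longest overlap joined a pair of gapped transcripts on chromosome 12, at 2322993 to 2730645 and 2334692 to 2744673, sharing 395954 bases of genome. The transcripts themselves were 2124 and 2847 bases long. They had 148 and 289 reads in WRR and 94 and 188 in XH, with ratios of 1.29 (0.99 to 1.68) and 1.26 (1.04 to 1.52). The next longest with at least 20 reads and 0.5 RPKM in each partner were 25786 bases, a pair with identical ends on chromosome 1 (12 and 21 reads in WRR, 8 and 24 in XH), and 25460 bases on chromosome 8, where both partners were higher in XH, 7.65-fold (2.64 to 30.2) and 4.81-fold (2.64 to 9.36).

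Entries with identical ends are listed more than once at the same interval with different transcript lengths. At chromosome 2, 139337476 to 139418556, an entry of 2124 bases had 121 reads in WRR and 132 in XH, while an entry of 2044 bases had 0 and 6. On an unplaced scaffold, entries of 1037 and 1077 bases had 75 and 66 reads in WRR and 36 and 29 in XH, so that their ratios, 1.70 (1.13 to 2.61) and 1.86 (1.18 to 2.99), were alike. At chromosome 3, 51930067 to 52030813, the entries had 21 and 2 reads in WRR and 68 and 4 in XH, which puts the first 3.96-fold higher in XH (2.40 to 6.81). The second, at 2.45-fold, has an interval that includes even (0.35 to 27.1).

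The chain with most members lay on chromosome 15, 1694099 to 1854986, where 37 contiguous transcripts sat within the span of a gapped transcript of 1980 bases. The gapped transcript had 197 reads (10.5 RPKM) in WRR but 226 reads (14.8 RPKM) in XH, a log2 ratio of -0.49. Of the 38 members, 3 were at least 2-fold higher in WRR, 12 in XH, and 23 lay between, with log2 ratios from -2.69 to 2.38 and a median of -0.67. Over all listed transcripts past the filter, 9.45% were 2-fold or more in favour of WRR and 46.9% in favour of XH. The chain held 2 transcripts of series A, 6 of B and 30 of C. Of all series C transcripts past the filter, 76.1% were 2-fold or more in favour of XH. Summed reads of the chain were 1.45-fold higher in XH (1.35 to 1.56). In the sums of all chains, a read listed for more than 1 entry would count more than 1 time. The intervals of these sums would then be too narrow. The second chain, on chromosome 2 at 142234199 to 142250718, had 21 members, 4 of them gapped, with log2 ratios from -3.21 to 1.03. Its summed reads were 1.22-fold higher in XH (1.12 to 1.32). With the median of all transcripts as reference, both chains would be counted as higher in WRR.

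The third chain differed from these. At chromosome 2, 117754903 to 117798160, all 20 members were at least 2-fold higher in XH, with log2 ratios from -2.77 to -1.51 and a median of -2.17. They were 8 transcripts of series A, 3 of B and 9 of C, so that the direction crossed all series. Levels ran from 1.04 to 9.91 RPKM in WRR and from 7.01 to 35.01 RPKM in XH. The gapped transcript that spans the chain, 3288 bases over 43258 bases of genome, had 74 reads (2.38 RPKM) in WRR but 426 reads (16.8 RPKM) in XH and the lowest ratio of all. Summed reads were 1751 in WRR and 6123 in XH, 4.28-fold higher in XH (4.06 to 4.52). With the median of all transcripts as reference every member stays higher in XH.

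**Figure D5:**
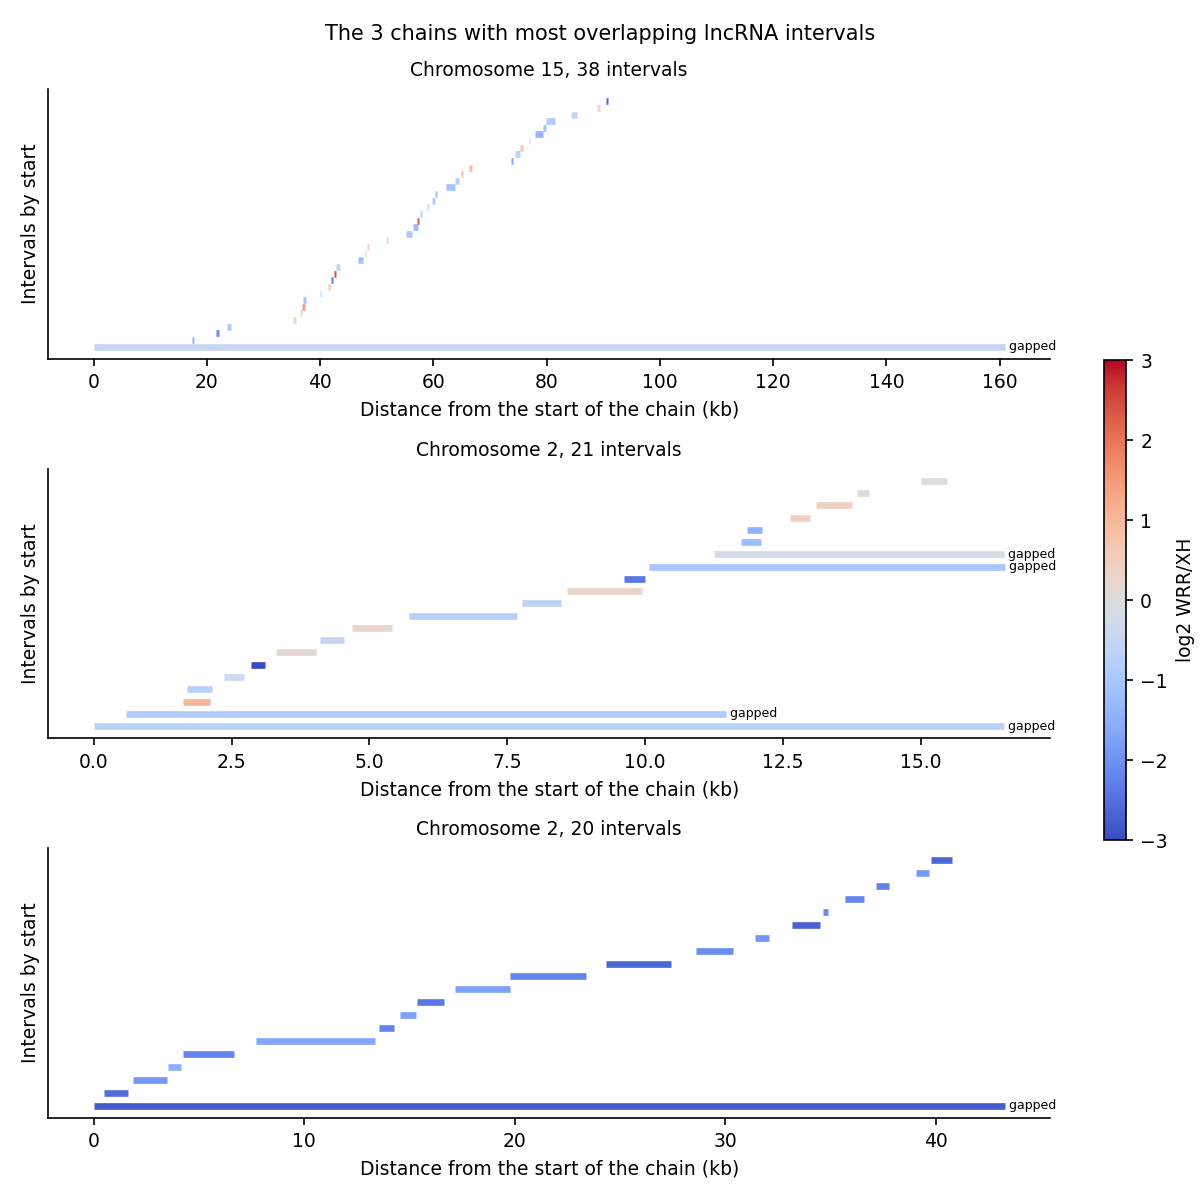
Position of each interval in the 3 chains with most members, as distance in kb from the start of the chain, 1 line per interval ordered by start, coloured by log2 WRR over XH from blue (higher in XH) to red (higher in WRR). Both colours occur inside the gapped span on chromosome 15 (38 intervals), while all 20 intervals of the lowest panel are blue.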

How the data were processed

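Per the labels' protocols, RNA of 4 hens per strain was pooled, depleted of ribosomal RNA and sequenced on an Illumina HiSeq instrument as 1 dUTP library per strain. The submitters' processing notes name galGal4, TopHat2 2.0.8 and Cufflinks 2.0.2. Per the file headers, each count is a number of uniquely mapped reads on a transcript. The RPKM values deposited by the authors were recomputed from reads, length and header total for all 21449 WRR and 21697 XH entries within 0.001%. Coverage is a percent of transcript length, per the file headers.

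Starts were read as counted from 0, ends as not included, and a dash as 0 reads. Members, lists and splits were chosen with earlier results of these data known. Overlaps needed 1 base. Pairs were named by largest opposite, joint, abundant, unequal and longest values among those with 20 reads per partner. Single ratios have exact 95% intervals (Clopper-Pearson) and ratios of ratios exact conditional ones. These cover counting error only, and PCR copies were not told apart. Intervals of medians (order statistics) and of the dash share (exact binomial) treat transcripts or pairs as independent draws, which they are not. None of the intervals covers the spread between birds. Overlap finding and intervals were tested on simulated data. Python 3.11.15, scipy 1.17.1, edgeR 4.0.16 (TMM only) and DESeq2 1.42.0 (size factors only) were used. Genes and sequence were not analysed here, since no galGal4 genome was used.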

Additional observations from a re-analysis of the deposited data

How the results depend on the processing

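No paired analysis was possible because only 1 pooled library stands for a strain, so that no library could be left out either. In the order members 2-fold or more in favour of WRR and of XH (394 and 1205), pairs 2-fold in the same direction (231) and in opposite directions (246), a pseudocount of 1 RPKM gave 185, 799, 135 and 60. It also gave a median log2 ratio of members of -0.54, and median differences between partners of 1.02 in log2 ratio and 0.53 in log2 mean RPKM (as reported, 0.75). A pseudocount of 0.01 gave a difference in ratio of 1.80. With no filter the member median was -0.70 and the difference in level 0.90. With at least 20 reads, members higher in WRR were 180, pairs in the same and opposite directions 152 and 63, and the differences 1.19 and 0.61.

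Scaling turned the median of members, -0.79, to 0.13 when centred on all transcripts, 0.12 with TMM and 0.16 with size factors. Members higher in WRR were then 769, 766 and 782, those higher in XH 623, 663 and 637, and pairs 2-fold in the same direction 146, 147 and 152. Scaled to listed reads the median was -0.46. Pairs 2-fold in opposite directions stayed between 221 and 270 under these 4.

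An overlap of 50% of the shorter interval gave a difference in level of 0.82 and a dash at 19.6% of members, and one of 200 bases 0.83 and 17.7%. Contiguous transcripts alone had 419 pairs of the same sign, 111 of them 2-fold, a difference in ratio of 2.07 and dashes at 17.5%, from fewer pairs by construction. Requiring in addition 200 private bases in each partner, a setting added after the data had been seen, left 124 members 2-fold or more in favour of WRR and 453 in favour of XH, 285 pairs of the same sign (51.4%), 50 and 94 pairs 2-fold in the same and opposite directions, differences of 1.78 and 0.57, and dashes at 3.19%. The level of transcripts with under 10% private bases relative to those with 90% or more, a log2 value of -3.49, was -2.92 in series C alone, and 0.43 per private length, which rests on 37 transcripts in the lowest class. Its cause was not tested. In all, 62 values, some of them printed above, stayed within 1.5 times (counts) or within the 95% interval (medians and shares).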

Other observations

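Reads of the 2 partners were also summed to treat a place as 1 locus, and a read listed for both partners would count for each. Among chains of 2 members that were 2-fold in opposite directions, 144 in number, the summed reads per library total lay within 2-fold in 99, were at least 2-fold higher in XH in 40 and in WRR in 5. Their median log2 ratio was -0.43 (quartiles -1.06 and -0.0021). These chains were chosen for partners that differ in direction, which draws the sum between them. Among all 806 chains of 2 with both members past the filter and reads in both libraries, 498 lay within 2-fold, 265 were higher in XH and 43 in WRR, with a median log2 ratio of -0.60.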
